A study of Mus musculus with 6 samples.

Results

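Genes for the hydrolases and membrane proteins of the lysosome were followed from whole hippocampus into RNA precipitated through a ribosome tag aimed at microglia. The set was a named list of 32 genes, taken by symbol from a count table of 39017 gene identifiers. It held 22 hydrolases, 7 membrane proteins and 3 luminal proteins that are not enzymes, and cathepsins were left out of it. All 32 had a row in the table and all 32 passed the filter on low counts, which left 16196 genes for testing.

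All 6 libraries came from female mice of strain C57BL/6 and genotype Tmem119-Cre:RiboTag, with hippocampus as the tissue. The RiboTag allele adds an HA epitope to the ribosomal protein Rpl22 in cells with Cre activity, and Tmem119, a gene of microglia within the brain, drives Cre here. The 3 input libraries were made from tissue RNA with no antibody, and the 3 IP libraries from RNA taken with anti-HA beads, each pair of libraries sharing a title code. The labels used here name no treatment and give no age, and whether each code is 1 animal is not stated, so p-values measure the spread between coded specimens. No beads-only library was analysed here, so RNA held by tagged ribosomes and RNA carried along with the beads cannot be told apart.

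Lysosomes are acidic organelles in which soluble hydrolases break down proteins, glycans, glycosaminoglycans, glycogen and sphingolipids. Most of these enzymes receive a mannose 6-phosphate tag in the Golgi and are delivered by receptors, while a coat of glycosylated membrane proteins shields the organelle and carries transport and signalling. Microglia are phagocytes and rely on this system to digest synaptic debris, myelin and dead cells, but neurons, astrocytes and oligodendrocytes also have lysosomes. Loss of single hydrolases in humans causes lysosomal storage diseases, many of which damage the brain.

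Input libraries held 18448897 to 20422140 counts and IP libraries 10757351 to 18558497. The labelled cell type was present in IP: all 12 microglial markers were higher than in input, with a median log2 fold of 6.12 and a summed level of 27280 to 33570 CPM against 382 to 489 CPM. CPM here are counts scaled to library size and by TMM factors, which correct for differences in library composition. All 12 neuronal, all 8 astrocyte and all 8 oligodendrocyte markers were lower in IP, with medians of -2.59, -2.39 and -2.95. Endothelial markers were not depleted: 5 of 8 were higher in IP, 4 of them over 4-fold, and none was lower, with a median of 2.41 and a summed level of 139 to 253 CPM in IP against 14.7 to 55.1 CPM in input. Pecam1 and Flt1 had the largest folds of this list, at 4.86 (SE 0.39) and 5.04 (SE 0.82) on the log2 scale. Emcn, Ly6c1 and Tek were not called, at log2 folds of 0.03, 0.71 and 2.21. The part of endothelial RNA in the results below was not tested. Of 6 choroid plexus markers none was called, and pair 3 stood apart, with a summed 3807, 2679 and 28.2 CPM in input and 625, 498 and 11.2 CPM in IP. None of the 28 neuronal, astrocyte and oligodendrocyte markers was at 0 in IP, and the summed neuronal level was still 1369 to 1451 CPM there, from 8424 to 9911 CPM in input. Of 7 markers of perivascular macrophages, which also make many lysosomal proteins, Cd163, Lyve1, Pf4 and F13a1 had no count in any IP library. In pair 1 Mrc1, Ms4a7 and Cbr2 were at 3.51, 3.13 and 0.918 CPM in IP, against 0.373, 0.28 and 0 CPM in input. In pair 2 Mrc1 and Cbr2 were again higher in IP, and in pair 3 both were lower. Only Mrc1 was tested, and it was not called (log2 fold 2.26, SE 1.74, edgeR adjusted p = 0.32). The 7 markers summed to 0.0934 to 7.56 CPM in IP against 1.07 to 2.57 CPM in input. Rpl22, the tagged gene, was at 62.5 to 68.1 CPM in input and 59.2 to 84.5 CPM in IP and was not called (edgeR adjusted p = 0.78).

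Most of the lysosomal genes were higher in IP, but not all. Of the 32, 26 were higher and 4 lower in IP at an adjusted p below 0.05 (edgeR quasi-likelihood test, Benjamini-Hochberg over all genes), and Neu1 and Gla were not called. Over all genes tested, 23.8% were called higher and 23.9% lower. The median log2 fold of the 32 was 1.98, against -0.10 over all genes tested and 6.12 for microglial markers. Folds ran from 6.37 for Laptm5 to -1.35 for Gaa, a span in linear terms from 82.7-fold higher in IP to 2.55-fold higher in input. On GRCm38, the annotation places Laptm5 (ENSMUSG00000028581) at chr4:130913125-130936141, Cd68 (ENSMUSG00000018774) at chr11:69664213-69666153, Lgmn (ENSMUSG00000021190) at chr12:102394084-102439813 and Gaa (ENSMUSG00000025579) at chr11:119267887-119285454. More than 4-fold higher levels were seen for 15 members, against 10.8% of all genes tested, and no member was more than 4-fold lower, against 10.5% of all genes. In bulk RNA, fewer cells of a type and less RNA per cell cannot be told apart, so a fold here is a ratio between the recovered RNA and the tissue and not a level per cell.

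**Figure D1:**
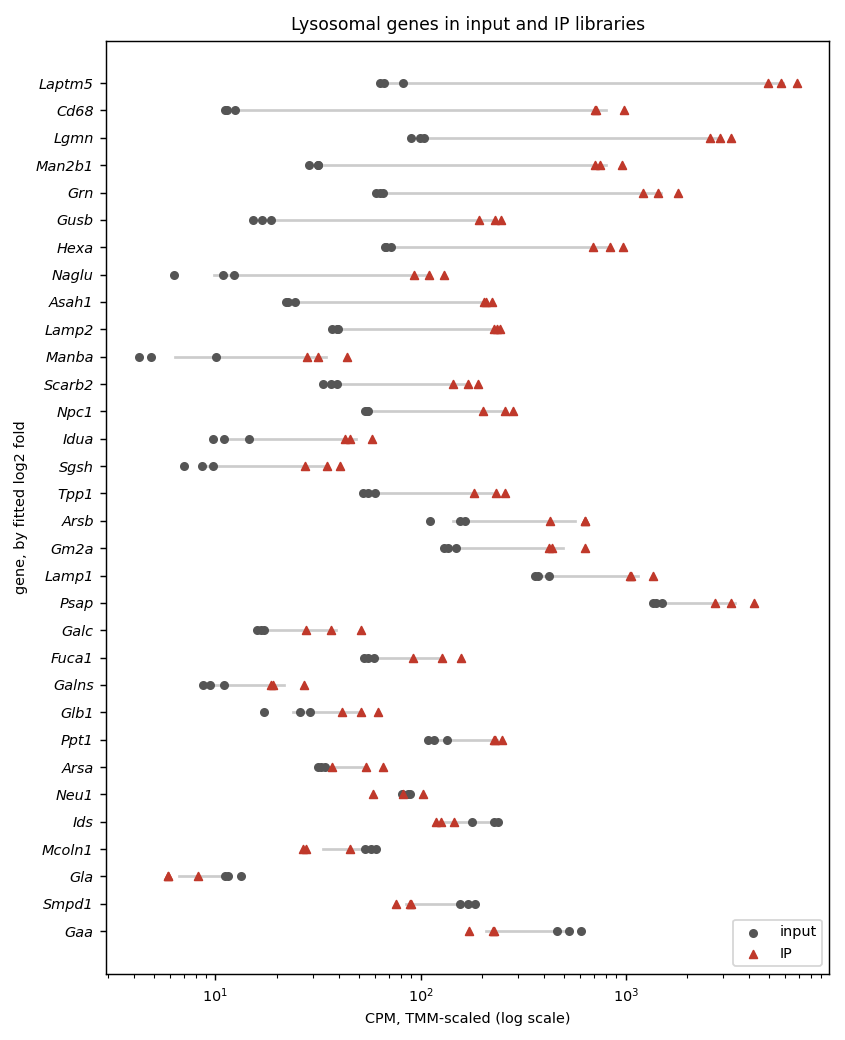
CPM of the 32 genes on a log axis in the 3 input libraries (circles) and the 3 IP libraries (triangles), ordered by fitted log2 fold, with grey lines joining the group means. Libraries of the 2 groups overlap for Neu1 only, and the order runs from Laptm5 at the top to Gaa at the bottom.

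The groups did not overlap for 31 of the 32 genes. All 3 IP libraries lay above all 3 input libraries for 26 and below them for 5, against 29.0% and 32.9% of all genes tested, or 61.9% in either direction. The separation of Gla therefore came without a call. The IP library of pair 2 was the highest of the 3 for 24 of the 26 higher members, while it was the highest for 41.7% of all genes called higher. Together the 32 genes took 0.396% to 0.430% of all counts in input and 1.82%, 2.22% and 1.99% in IP libraries 1, 2 and 3. For this sum the same library was thus highest without TMM scaling. The count of 24 used TMM factors of 0.9984, 0.9049 and 0.9954 in IP libraries 1, 2 and 3, and was not repeated gene by gene without them.

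The promoters of a few members are shown because many lysosomal genes carry a short palindrome, CACGTG, bound by the factors TFEB and TFE3 in human and mouse cells, and because the members that hold it went both ways. The windows are RefSeq's on GRCm38.p6, from 250 bases before to 50 bases after each start. Of the 32 members, 29 had a window, in 31 windows. CACGTG, which reads the same on both strands, was found in 9 of these 31 windows (29.0%), against 7.15% of all 32851 windows and 9.49% of the 14628 windows of tested genes. The 9 genes were Lamp1, Lgmn, Naglu, Sgsh, Glb1 and Arsa, which were higher in IP, Gaa and Mcoln1, which were lower, and Gla. In Lgmn, CACGTG was in the window chr12:102439043-102439342, where the bases just after the start were found in no annotated transcript of the gene. It was absent from the other Lgmn window, chr12:102439679-102439978, where those bases were found in an annotated transcript. Whether a transcript begins at either start was not checked. The longer form TCACGTGA, which contains CACGTG, was in the windows of Gla and Mcoln1 only, or 6.45% of member windows. It was in 0.974% of all windows and 1.7% of those of tested genes. GAGGAAGT, a form of the site of the myeloid factor PU.1, was searched on both strands. It was in the windows of Gla and Gusb, or 6.45%, against 3.20% of all windows and 2.87% of those of tested genes. Capitals mark CACGTG in the sequences below.
Lamp1, chr8:13158911-13159210, plus strand: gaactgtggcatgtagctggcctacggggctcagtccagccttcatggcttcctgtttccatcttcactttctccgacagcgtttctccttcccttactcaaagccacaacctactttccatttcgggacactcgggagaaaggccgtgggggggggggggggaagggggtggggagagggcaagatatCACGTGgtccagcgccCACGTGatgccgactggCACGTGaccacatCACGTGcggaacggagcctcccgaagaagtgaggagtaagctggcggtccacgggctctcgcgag
Naglu, chr11:101069844-101070143, plus strand: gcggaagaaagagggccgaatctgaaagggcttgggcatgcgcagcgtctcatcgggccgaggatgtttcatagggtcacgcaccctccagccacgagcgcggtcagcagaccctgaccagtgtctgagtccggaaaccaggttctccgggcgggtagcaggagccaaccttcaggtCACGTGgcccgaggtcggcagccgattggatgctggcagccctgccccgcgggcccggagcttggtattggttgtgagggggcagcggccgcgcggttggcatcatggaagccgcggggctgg
Mcoln1, chr8:3500269-3500568, plus strand: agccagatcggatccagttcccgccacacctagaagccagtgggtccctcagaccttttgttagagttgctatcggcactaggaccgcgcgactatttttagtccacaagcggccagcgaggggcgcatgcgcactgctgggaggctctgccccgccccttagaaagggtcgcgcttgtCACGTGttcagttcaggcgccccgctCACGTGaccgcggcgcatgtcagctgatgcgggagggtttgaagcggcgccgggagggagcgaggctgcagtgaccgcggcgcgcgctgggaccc
Gaa, chr11:119267713-119268012, plus strand: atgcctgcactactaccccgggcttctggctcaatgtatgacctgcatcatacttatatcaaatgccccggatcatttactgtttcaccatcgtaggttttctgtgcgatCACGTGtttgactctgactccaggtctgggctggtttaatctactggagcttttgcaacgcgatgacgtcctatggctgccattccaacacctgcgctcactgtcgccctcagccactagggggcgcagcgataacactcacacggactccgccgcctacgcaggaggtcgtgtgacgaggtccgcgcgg
Laptm5, chr4:130913066-130913365, plus strand: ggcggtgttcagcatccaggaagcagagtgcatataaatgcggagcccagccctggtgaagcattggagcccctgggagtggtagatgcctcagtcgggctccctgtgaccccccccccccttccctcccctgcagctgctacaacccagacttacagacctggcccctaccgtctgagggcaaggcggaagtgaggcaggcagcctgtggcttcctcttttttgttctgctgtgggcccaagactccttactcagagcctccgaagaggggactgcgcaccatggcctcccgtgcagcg
In the window of Lamp1 the palindrome begins 61, 45, 28 and 15 bases before the start, and in that of Mcoln1 71 and 45 bases before it. Naglu and Gaa each hold it once, 73 and 140 bases before the start. Laptm5, the member with the highest fold, has no exact match to any of the 3 motifs in its window. Forms that differ from these motifs in any letter were not searched. A match describes letters in a window and is not a measured binding site.

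Among the membrane proteins, 6 of 7 were higher in IP and Mcoln1 was lower, beside 23.8% and 23.9% of all genes tested. Their median log2 fold was 2.20. Laptm5, a multi-spanning lysosomal protein of blood cell lineages, had 63.6, 66.2 and 81.8 CPM in the input of pairs 1, 2 and 3, the order used throughout, and 4946, 6813 and 5748 CPM in their IP. Cd68, or macrosialin, a heavily glycosylated member of the LAMP family found in macrophages, was at 11.2, 11.4 and 12.4 CPM in input and at 710, 985 and 714 CPM in IP. Both lay far above input in every pair. Their fitted log2 folds, 6.37 (SE 0.22) and 6.10 (SE 0.21), lay within the range of the microglial markers, whose median was 6.12. Each had an edgeR adjusted p of 9.8e-08.

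The 2 widely expressed LAMP proteins rose much less. Lamp1, a main component of the lysosomal coat, was at 360, 422 and 376 CPM in input and at 1057, 1353 and 1053 CPM in IP, a log2 fold of 1.58 (SE 0.16, edgeR adjusted p = 3.2e-05). Lamp2, encoded on chromosome X and needed for fusion of autophagosomes with lysosomes, was at 37.2, 39.5 and 39.2 CPM in input and at 229, 244 and 237 CPM in IP. Its log2 fold of 2.62 (SE 0.15, edgeR adjusted p = 7.5e-07) was the most even over pairs by SD, at 2.61, 2.61 and 2.58. Per kilobase of transcript, Lamp2 was at 0.0621 ± 0.0037 of the level of Lamp1 in input and at 0.128 ± 0.0148 in IP (SD, n = 3), with no overlap between groups. An exact two-sided permutation test of that ratio gave p = 0.1, the smallest that 3 against 3 libraries allow. Like such tests of ratios below, it did not use the pairs, and the ratio was chosen after its values were seen.

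Scarb2, or LIMP-2, which carries glucocerebrosidase to the lysosome, rose from 36.5 ± 2.81 to 168 ± 23.4 CPM (log2 fold 2.20, SE 0.17, edgeR adjusted p = 7.1e-06). Npc1, which exports cholesterol from the lysosome, rose from 54.7 ± 1.05 to 248 ± 41.9 CPM (log2 fold 2.18, SE 0.17, edgeR adjusted p = 6.6e-06). These 2 folds differed by less than the SE of either. Mcoln1, the cation channel TRPML1 that releases calcium from lysosomes, went the other way, at 57.1, 60.8 and 53.4 CPM in input and 27.6, 45.5 and 26.7 CPM in IP. Its log2 fold was -0.78 (SE 0.25, edgeR adjusted p = 0.026). The groups did not overlap, but the call was lost with any of input libraries 1 and 2, IP libraries 1 and 3, or pairs 1 and 3 left out (adjusted p = 0.0587 to 0.18) and with an offset for transcript length (adjusted p = 0.055). Its paralogs Mcoln2 and Mcoln3 had no count in any of the 6 libraries, where 3 counts correspond to 0.14 to 0.28 CPM.

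**Figure D2:**
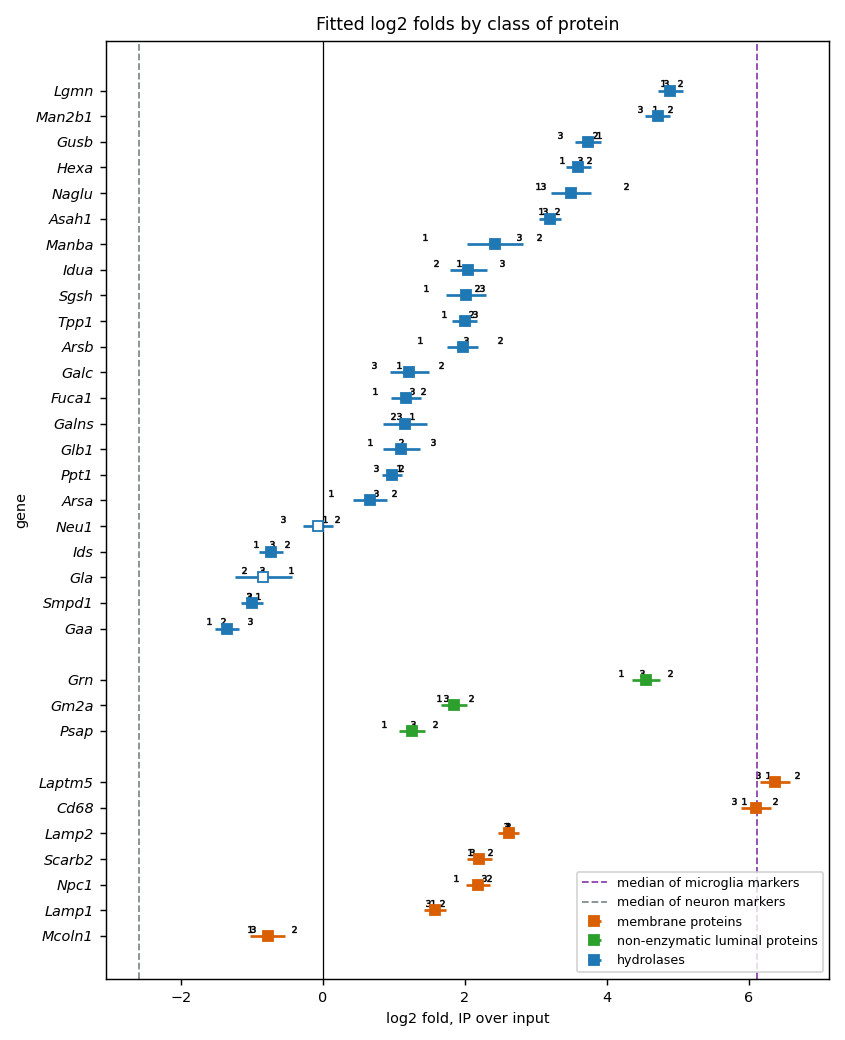
Fitted log2 folds of IP over input (squares, bars show 1 SE, open squares mark genes that were not called), by class of protein, with the digits 1, 2 and 3 marking the log2 difference in each pair. Laptm5 and Cd68 lie at the median of the microglial markers (6.12, right dashed line), and no member reaches the median of the neuronal markers (-2.59, left dashed line).

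All 3 luminal proteins that are not enzymes rose. Grn, or progranulin, the precursor of granulins whose loss causes frontotemporal dementia in humans, was at 65.7, 60.6 and 63.5 CPM in input and at 1211, 1808 and 1438 CPM in the IP libraries (fitted log2 fold 4.55, SE 0.19, edgeR adjusted p = 2.0e-07). Psap, or prosaposin, the precursor of the saposins that present sphingolipids to their hydrolases, was at 1502, 1414 and 1356 CPM in input and at 2718, 4212 and 3268 CPM in IP. Its log2 fold was only 1.26 (SE 0.18, edgeR adjusted p = 0.00034), although per kilobase it was the most abundant member of the tissue. Psap alone made up 35.3% of the summed CPM of the 32 genes in input. Gm2a, an activator protein that lifts ganglioside from membranes for hydrolysis, rose from 138 ± 9.30 to 497 ± 117 CPM (log2 fold 1.84, SE 0.19, edgeR adjusted p = 3.3e-05).

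Of the 22 hydrolases, 17 were higher, 3 lower and 2 not called, beside 23.8% higher and 23.9% lower over all genes tested. The median log2 fold of the hydrolases was 1.59. The protease Lgmn, or legumain, which cleaves after asparagine and activates other lysosomal proteases, led them. It was at 104, 99.9 and 89.6 CPM in input and at 2893, 3268 and 2569 CPM in IP, a log2 fold of 4.89 (SE 0.17, edgeR adjusted p = 1.2e-07). The pairs gave 4.79, 5.03 and 4.83. The peptidase Tpp1 and the thioesterase Ppt1, both known from neuronal ceroid lipofuscinosis, rose by log2 folds of 2.0 (SE 0.18) and 0.97 (SE 0.15), from 56.1 ± 4.07 to 224 ± 38.3 CPM and from 120 ± 13.4 to 236 ± 12.7 CPM. A 129-base stretch of Ppt1 exons overlaps Cap1 on the other strand, and the strand setting of the counts is not given in the sources used here. In all, 10 members share exon bases with another counted gene, 9 of them on the opposite strand. Apart from Ppt1 and those named below, opposite-strand overlaps were 690 bases for Arsa, 511 for Npc1 (Rmc1), 255 for Hexa, 249 for Lamp1 and 68 for Grn.

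Of the enzymes that trim N-glycans, all but Neu1 rose. Man2b1, the lysosomal alpha-mannosidase, was at 28.7, 31.7 and 31.6 CPM in input and at 747, 956 and 711 CPM in the IP libraries (fitted log2 fold 4.72, SE 0.18, edgeR adjusted p = 1.4e-07). Manba, the beta-mannosidase, rose from 6.39 ± 3.20 to 34.5 ± 8.11 CPM, with a log2 fold of 2.43 (SE 0.40, edgeR adjusted p = 0.00074), or 3.05 without pair 1, whose input was at 10.1 CPM against 4.84 and 4.26 CPM in the others. Fuca1, the alpha-fucosidase, rose by 1.17 (SE 0.21, edgeR adjusted p = 0.0014). Neu1, the sialidase that removes terminal sialic acid, was at 81.1, 88.9 and 87.3 CPM in input and at 82.6, 102 and 58.9 CPM in IP. It was the only member whose groups overlapped, and it was not called (log2 fold -0.08, SE 0.21, edgeR adjusted p = 0.80).

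Enzymes of glycosaminoglycan breakdown rose with 1 exception. Gusb, the beta-glucuronidase, was at 15.2, 17.0 and 18.6 CPM in input and at 232, 248 and 194 CPM in the IP libraries (fitted log2 fold 3.73, SE 0.18). Naglu and Sgsh, a glucosaminidase and a sulfatase of heparan sulfate, rose by 3.49 (SE 0.29) and 2.02 (SE 0.29), and reached 111 ± 18.8 and 34.2 ± 6.59 CPM in IP. Idua, the iduronidase, rose from 11.8 ± 2.55 to 48.7 ± 8.19 CPM (log2 fold 2.05, SE 0.26). For these 4 genes the edgeR adjusted p was 3.9e-07, 8.9e-06, 0.00031 and 0.00015. Ids, the X-linked iduronate sulfatase that acts just before Idua on heparan and dermatan sulfate, went the other way, at 228, 178 and 239 CPM in input and at 118, 125 and 146 CPM in IP. Its log2 fold was -0.73 (SE 0.17, edgeR adjusted p = 0.0055), or -0.62 with an adjusted p of 0.090 without pair 1. Per kilobase, the level of Idua was 0.0801 ± 0.031 of that of Ids in input and 0.526 ± 0.0306 in IP (SD, n = 3; exact two-sided permutation p = 0.1, the smallest possible, for a ratio chosen after its values were seen). The exons of Sgsh and Idua overlap those of other genes on the opposite strand by 955 bases (Card14) and by 124 and 141 bases (Dgkq and Slc26a1).

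Arsb, Galns and Glb1, of chondroitin, dermatan and keratan sulfate breakdown, rose as well. Arsb, which acts on dermatan and chondroitin sulfate, was at 165, 112 and 155 CPM in input and at 428, 632 and 631 CPM in the IP libraries (fitted log2 fold 1.97, SE 0.21, edgeR adjusted p = 5.4e-05). Arsb shares 1948 bases of exon with the non-coding gene Gm26527 on the other strand, which itself had 16615 counts over the 6 libraries, so its value is uncertain. Galns, a sulfatase of keratan sulfate and chondroitin sulfate, rose from 9.71 ± 1.21 to 21.6 ± 4.68 CPM (log2 fold 1.16, SE 0.31, edgeR adjusted p = 0.013). Its adjusted p was 0.058, 0.10 and 0.061 without input library 3, pair 1 and pair 2. Glb1, the beta-galactosidase of keratan sulfate and gangliosides, rose from 24.0 ± 6.04 to 51.7 ± 10.5 CPM (log2 fold 1.10, SE 0.26, edgeR adjusted p = 0.0069). An exon stretch of 165 bases is shared by Glb1 and Tmppe on the same strand.

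Hexa, a subunit of the hexosaminidase that degrades ganglioside and whose loss causes Tay-Sachs disease, was at 67.0, 71.6 and 68.0 CPM in input and at 695, 967 and 844 CPM in the IP libraries (fitted log2 fold 3.60, SE 0.17, edgeR adjusted p = 3.3e-07). The groups lay far apart in every pair, with log2 differences of 3.37, 3.75 and 3.62.

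Enzymes of sphingolipid breakdown pointed in both directions: Asah1, Galc and Arsa rose, Smpd1 fell and Gla was not called. Asah1, acid ceramidase, was at 24.3, 22.1 and 22.7 CPM in input and at 209, 222 and 204 CPM in the IP libraries (fitted log2 fold 3.20, SE 0.16, edgeR adjusted p = 3.9e-07). Smpd1, acid sphingomyelinase, which makes the ceramide that Asah1 cleaves, was at 170, 185 and 156 CPM in input and at 89.5, 89.2 and 75.9 CPM in the IP libraries (fitted log2 fold -1.0, SE 0.15, edgeR adjusted p = 0.00052). The 2 genes thus changed places: Asah1 was at 0.118 ± 0.0126 of the level of Smpd1 per kilobase in input and at 2.2 ± 0.153 times that level in IP (SD, n = 3; exact two-sided permutation p = 0.1, the smallest possible, for a ratio chosen after its values were seen).

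Arsa and Galc, which act on the myelin lipids sulfatide and galactosylceramide, rose little. Galc was at 17.2, 15.9 and 16.7 CPM in input and at 36.5, 51.3 and 27.7 CPM in the IP libraries (fitted log2 fold 1.22, SE 0.27, edgeR adjusted p = 0.0052), and its adjusted p was 0.0517 and 0.0605 without pairs 1 and 2. Arsa was at 34.1, 32.7 and 31.8 CPM in input and at 37.1, 65.7 and 54.0 CPM in IP, where library 1 lay close to input. Its log2 fold of 0.67 (SE 0.24) had an edgeR adjusted p of 0.044. With the title code as a block the adjusted p was 0.060, and it was 0.0714 with scaling by library totals only and 0.0756 to 0.256 without any of input libraries 1 to 3, IP libraries 2 and 3, or pairs 2 and 3, with a log2 fold of 0.45 without IP library 2 or without pair 2. Gla, the X-linked alpha-galactosidase that acts on globotriaosylceramide, was at 11.5, 13.3 and 11.1 CPM in input and at 8.26, 5.88 and 5.88 CPM in IP, and was not called (log2 fold -0.84, SE 0.40, edgeR adjusted p = 0.11).

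Gaa, the acid alpha-glucosidase that digests glycogen and is lost in Pompe disease, fell furthest. It was at 528, 607 and 462 CPM in input and at 172, 228 and 225 CPM in IP, a log2 fold of -1.35 (SE 0.17, edgeR adjusted p = 0.00015), with -1.61, -1.41 and -1.03 in the 3 pairs. Gaa and Smpd1 were the members with the highest tissue levels per kilobase after Psap and Lamp1, at 147 ± 20.1 and 70.6 ± 5.97 CPM per kilobase (SD, n = 3). The 4 lower members, Gaa, Smpd1, Mcoln1 and Ids, had log2 folds of -1.35 to -0.73, nearer to 0 than the medians of the neuronal, astrocyte and oligodendrocyte markers. Whether RNA of other cells in the IP contributes to their level there was not tested.

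**Figure D3:**
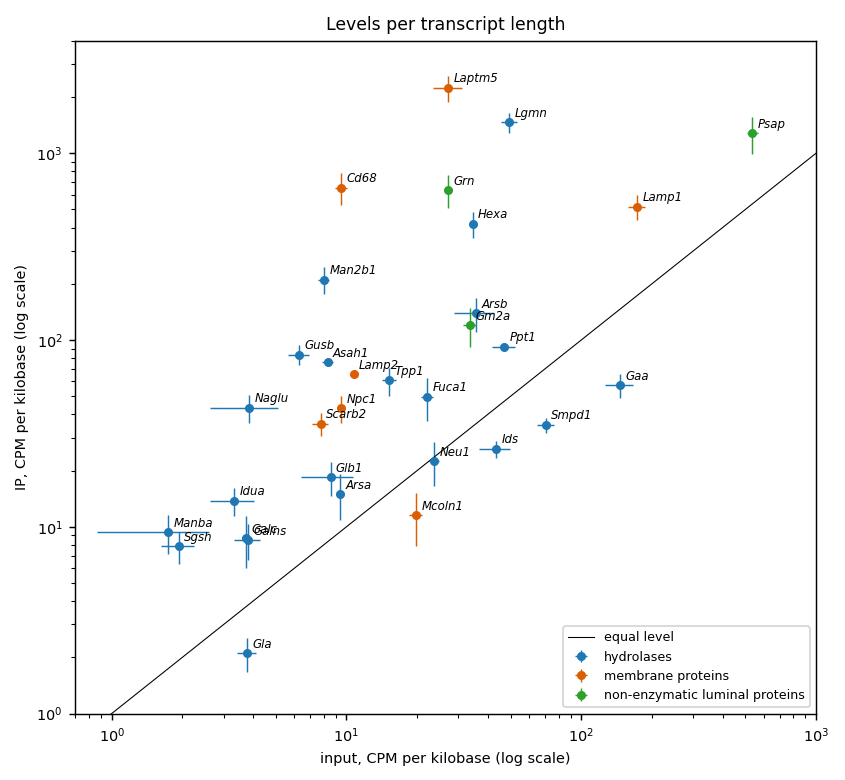
Mean level in CPM per kilobase of the longest annotated transcript in input (horizontal) and IP (vertical), both log axes, with bars of 1 SD over 3 libraries. Genes above the diagonal are higher in IP. Laptm5, Lgmn and Cd68 stand far above it, while Gaa, Smpd1, Ids, Mcoln1 and Gla lie below and Neu1 lies just below.

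Ranked per kilobase, the order of the lysosomal genes differed between tissue and IP. In input the order began with Psap at 536 ± 27.7, Lamp1 at 173 ± 14.4, Gaa at 147 ± 20.1, Smpd1 at 70.6 ± 5.97 and Lgmn at 49.2 ± 3.82 CPM per kilobase (SD, n = 3). Lamp1 and Gaa overlapped over libraries, and so did Lgmn and the next gene, Ppt1. In IP it began with Laptm5 at 2245 ± 360, Lgmn at 1462 ± 176, Psap at 1279 ± 284, Cd68 at 653 ± 128, Grn at 635 ± 129, Lamp1 at 518 ± 77.2 and Hexa at 418 ± 68.2 CPM per kilobase. There, Lgmn and Psap overlapped, as did each neighbouring pair from Cd68 to Hexa. Laptm5 stood at place 11 in input and at place 1 in IP, Cd68 at 19 and 4, and Gaa at 3 and 16. Of the 31 neighbouring pairs, 20 overlapped in input and 23 in IP. The highest and lowest levels differed 308-fold in input, between Psap and Manba, and 1070-fold in IP, between Laptm5 and Gla. With the merged exons of a gene as its length, Laptm5 was still first in IP, at 1541 CPM per kilobase, and Lgmn and Psap followed at 1253 and 1239. The level of Lamp2 was 24.8 by that length in place of 65.7 and that of Man2b1 100.3 in place of 211.

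Across the 32 genes, folds and longest transcript lengths had a Spearman correlation of -0.22 and a Pearson correlation of -0.40. The points are genes that share the same 6 libraries, so the values describe this set only.

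Other lysosomal genes, from 4 lists, gave a background for the 32. Of 28 further hydrolases and luminal proteins, 26 were tested, 20 were higher and 1 was lower, beside 23.8% and 23.9% of all genes tested. Their median log2 fold was 1.90. Ifi30, a thiol reductase of antigen processing, rose from 2.82 to 91.4 CPM in the mean (log2 fold 5.01, SE 0.38, edgeR adjusted p = 5.1e-06), with a log2 fold of 5.64 under the length offset. Epdr1, an ependymin-related lysosomal protein, was the 1 lower gene, at 162, 144 and 149 CPM in input and at 10.2, 17.4 and 10.3 CPM in the IP libraries (fitted log2 fold -3.59, SE 0.25). Plbd2, a phospholipase B-like protein, was next lowest and rose by 0.71 (SE 0.18, edgeR adjusted p = 0.011), with an adjusted p of 0.072 without pair 2.

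Of 29 other membrane proteins, 27 were tested, 14 were higher and 3 lower, beside 23.8% and 23.9% of all genes tested. Their median was 0.66. Slc11a1, the metal transporter of phagocytes, was at 3.73, 3.44 and 2.41 CPM in input and at 138, 218 and 141 CPM in the IP libraries (fitted log2 fold 5.69, SE 0.29). Slc29a3, a lysosomal nucleoside transporter, rose by 4.72 (SE 0.19). Lamp5, a LAMP protein of neurons, fell by 3.15 on the log2 scale (SE 0.62, edgeR adjusted p = 0.0023), or had a log2 fold of -3.94 without IP library 2 and -3.81 without pair 2. Abcb9, a lysosomal peptide transporter, was at 45.7, 49.2 and 50.1 CPM in input and at 12.2, 23.4 and 0.560 CPM in IP. It was not called (log2 fold -2.0, SE 0.80, edgeR adjusted p = 0.065), but was without IP library 2 (log2 fold -2.89, adjusted p = 0.035), IP library 3 (-1.45, adjusted p = 0.00399) or pair 3 (-1.45, adjusted p = 0.016), and also with library totals only (adjusted p = 0.0474), limma-voom (adjusted p = 0.00392) and the length offset with the title code as a block (adjusted p = 0.0338).

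Of 13 genes that tag and deliver hydrolases, 5 were higher, 1 was lower and 7 were not called, with a median of 0.74. Of all genes tested, 23.8% were called higher and 23.9% lower, or 47.7% in either direction. Nagpa, which uncovers the mannose 6-phosphate tag, rose from 13.4 to 153 CPM in the mean (log2 fold 3.51, SE 0.20), and Sumf1, which activates sulfatases in the endoplasmic reticulum, rose by 2.01 (SE 0.20). Gnptab, which begins the tag, fell from 57.6 to 38.6 CPM (log2 fold -0.58, SE 0.18, edgeR adjusted p = 0.024). That call was lost without input libraries 1 or 3 or any 1 pair (adjusted p = 0.054 to 0.16). Igf2r, the large mannose 6-phosphate receptor, was not called at a log2 fold of -0.74 (SE 0.36, edgeR adjusted p = 0.13), but its log2 fold was -1.44 (adjusted p = 0.0064) with the length offset.

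Of 16 listed regulators of lysosomal transcription and nutrient sensing, 15 were tested, 7 were higher and 3 lower, with a median of 0.64, beside 23.8% and 23.9% of all genes tested. Tfeb, a factor that binds CACGTG, was at 8.15, 13.3 and 9.08 CPM in input and at 81.3, 73.7 and 57.4 CPM in the IP libraries (fitted log2 fold 2.80, SE 0.27, edgeR adjusted p = 2.3e-05). Its relative Tfe3 was at 47.7, 43.8 and 45.5 CPM in input and at 249, 285 and 184 CPM in the IP libraries (fitted log2 fold 2.39, SE 0.19, edgeR adjusted p = 7.5e-06). Rragd and Rraga, GTPases that recruit the kinase complex mTORC to the lysosome, had log2 folds of -2.59 (SE 0.38) and -1.62 (SE 0.25), both called, and that of Rragd was -3.17 without pair 2. All 4 lists shared the libraries of the 32 genes, so their counts are not independent of them, and no difference between lists was tested.

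**Figure D4:**
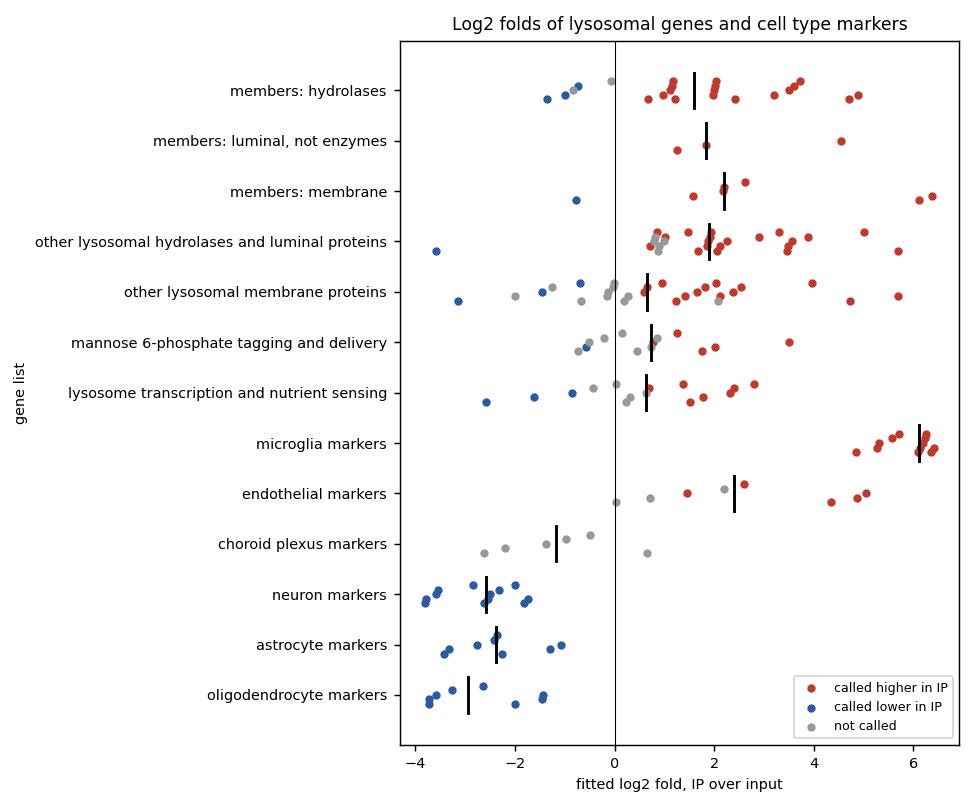
Fitted log2 folds of IP over input for each tested gene of the lysosomal lists and of 6 cell type marker lists, with black bars at the medians and colour showing the call. The lysosomal lists reach from about the level of the neuronal markers to that of the microglial markers, with medians of 0.64 to 2.20.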

How the data were processed

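Input and anti-HA precipitated (IP) RNA of mouse hippocampus were compared in 3 libraries each. Purification used columns, and library making included selection of mRNA and of 1 strand, per the labels' protocols. The submitters' processing notes name bcl2fastq 2.17, FastQC, Trimmomatic and genome mm10, while the sources used here do not give the aligner, the counter with its strand setting, or the annotation. The authors deposited whole-number counts per gene that were not normalized. GENCODE M21 (GRCm38, the assembly also called mm10) gave symbols to 37693 identifiers, and the other 1324 stayed in totals and tests.

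The test was edgeR 4.0.16 (quasi-likelihood, robust, TMM, filterByExpr with minimum count 10, prior count 0.125, no block) on R 4.3.3, over 16196 genes, called at a Benjamini-Hochberg adjusted p below 0.05. The fit was also run on simulated counts. Only a small part of the genes was changed there, so that run does not check the fit at the share of genes called here. Each SE was derived from the fold and its F value. Pair differences used CPM + 0.5, and levels per kilobase the longest annotated transcript. Floors cover counting error only. Libraries within a group differed by more than sampling noise (chi-square per degree of freedom 25.3 to 49.5). Pairs follow the specimen code that the titles of an input and an IP share. Deviations from group means correlated at 0.05, 0.23 and 0.16 within codes and at -0.18 to 0.02 between them. Libraries are numbered in accession order.

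Alternatives were other scalings and filters, DESeq2 1.42.0, limma-voom (limma 3.58.1), the block, a 2-fold minimum, thinning to the smallest library, another prior count and pseudocounts, a smooth offset for transcript length, another length, and leaving out libraries or pairs. Named beyond the 32 were Tmem119, Rpl22 and genes of each other lysosomal list with an average log2 CPM of at least 3. From each list these were the 2 highest and 2 lowest folds. Mcoln2, Mcoln3, overlapping genes and single endothelial and perivascular macrophage markers were also named, chosen after their values were seen. Tmem119 had a log2 fold of 6.41. The result for 1 gene that this rule names is not reported here. Members, lists and tests were chosen with earlier results of these data known. Tables and plots were made with Python 3.11.15, pandas 2.3.3, SciPy 1.17.1 and Matplotlib 3.10.9.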

Additional observations from a re-analysis of the deposited data

How the results depend on the processing

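Of 672 values for the 32 genes over 21 alternatives of the fit, 638 kept their direction and their side of the threshold, and 21 genes did so under every one of these 21. A 2-fold minimum in the test ended 10 calls, leaving 19 members higher and 1 lower, and gave 2176 higher and 2021 lower genes in all, 8 higher and 1 lower among other membrane proteins, and 3 higher and 0 lower among delivery genes. The other 22 lost calls were of Arsa, Galc, Galns, Ids and Mcoln1. Neu1, not called, ranged from -0.29 without IP library 2 to 0.10 without IP library 3, and was 0.09 without pair 3. Leaving out a library or pair gave 23 to 26 higher and 2 to 4 lower members, 2467 to 4192 lower genes in all, and 0 to 1 lower delivery genes. Other membrane proteins had 5 lower genes with library totals only, with limma-voom and with the length offset and replicate block together. Delivery genes had 8 higher with limma-voom, and 2 lower with the length offset with or without the replicate block. The title code as a replicate block gave 25 higher and 4 lower members, 3698 higher and 3784 lower genes in all, and of the member calls changed only that of Arsa. Of the per-pair differences, that of Lamp2 moved by more than its small SD with a pseudocount of 2, and 18 of 32 levels per kilobase in IP did with merged exons. Gla, at 63 to 153 counts in IP, was not called under any of the 21, and thinning every library to the smallest total changed no member call.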
